A study of Mus musculus with 9 samples.

Results

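The genes examined here are the 8 that encode the core of deuterosome and procentriole assembly: Deup1, Cep63, Cep152, Plk4, Stil, Sass6, Cenpj and Ccdc78. They were taken by symbol from the 53379 Ensembl genes in each count table, and all 8 passed the low-count filter that left 19572 genes. RNA was sequenced from GFP-positive cells, labelled neural progenitor cells, sorted at E16.5 (embryonic day) from forebrains of C57Bl6DBa2 mouse embryos that had been electroporated in utero at E14.5, 2 days earlier. The GemC1 group received pCAGGS-GemC1, the Mcidas group a plasmid for Mcidas written as pCAAGS-Mcidas in the labels, and the GFP group H2B-GFP, with 3 libraries in each group. The labels say that the plasmids were given with or without H2B-GFP, and the GFP reporter by which cells were sorted is shared by all groups. The plasmids' names point to the CAG promoter, which is active in most cell types, so expression was forced and not limited to a cell type by its promoter. Neither the number of embryos behind a library nor a pool of litters is given, so p-values measure only the spread between these samples, which may be technical.

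A dividing cell copies each of its centrioles once, whereas a multiciliated cell, such as an ependymal cell, makes many at the same time. In both settings the kinase PLK4 starts a new centriole (a procentriole), its partner STIL brings in SAS-6 (Sass6) to build the cartwheel, and CPAP (Cenpj) governs growth of the microtubule wall. CEP63 and CEP152 form the platform around the parent centriole on which PLK4 works. Multiciliated cells add the deuterosome, a body assembled by DEUP1, which is a paralogue of CEP63 and also binds CEP152. CCDC78 was described as a deuterosome component in Xenopus. Upstream of this machinery stand GemC1 and Mcidas, members of the geminin family that act with E2F factors, and the design asked how GemC1 starts the fate.

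Library totals ran from 22914704 to 41163917 counts. Values are CPM (counts per 1000000 counts of a library, after TMM scaling), and a floor of 3 counts lay between 0.0729 and 0.131 CPM. Gmnc, which encodes GemC1, averaged 277.2 CPM in the GemC1 group and had 15 counts over the Mcidas libraries and 0 counts over the GFP libraries. Mcidas averaged 70.0, 497.3 and 0.667 CPM in the GemC1, Mcidas and GFP groups, and Foxj1, a forkhead factor of motile cilia, 120.1, 149.8 and 1.03 CPM. All 11 progenitor markers examined were counted in each group, with summed levels of 2054 to 2228, 1800 to 2021 and 1861 to 2002 CPM in GemC1, Mcidas and GFP libraries. The 10 neuron markers summed to 4485 to 4954, 4738 to 5511 and 5468 to 6398 CPM, so the sorted cells were not progenitors alone. A year code in the deposited tables differs between the 3 Mcidas libraries and the rest, and if it marks a batch, batch and plasmid cannot be told apart there.

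Of the 8 genes, 4 rose in GemC1 libraries over GFP libraries: Deup1, Cep152, Stil and Plk4 (edgeR quasi-likelihood test, Benjamini-Hochberg adjusted p under 0.05 over all genes). Over all genes tested, 3.86% were called higher and 1.32% lower in that comparison, and none of the 8 was lower. The same 4 genes rose in Mcidas libraries over the same GFP libraries, where 4.03% of all genes were called higher and 0.327% lower. Cep63, Sass6, Cenpj and Ccdc78 were called in neither comparison. Tested against a 2-fold minimum, only Deup1 was called in GemC1 (1.54% of all genes higher), and only Deup1 and Cep152 in Mcidas (1.9% of all genes higher). The median log2 fold change of the 8 genes was 0.79 in GemC1, beside 0.00 over all genes tested, and 0.65 in Mcidas, beside -0.03 over all genes. In sorted bulk cells, a higher level in each cell and a larger share of cells with the transcript cannot be told apart.

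**Figure D1:**
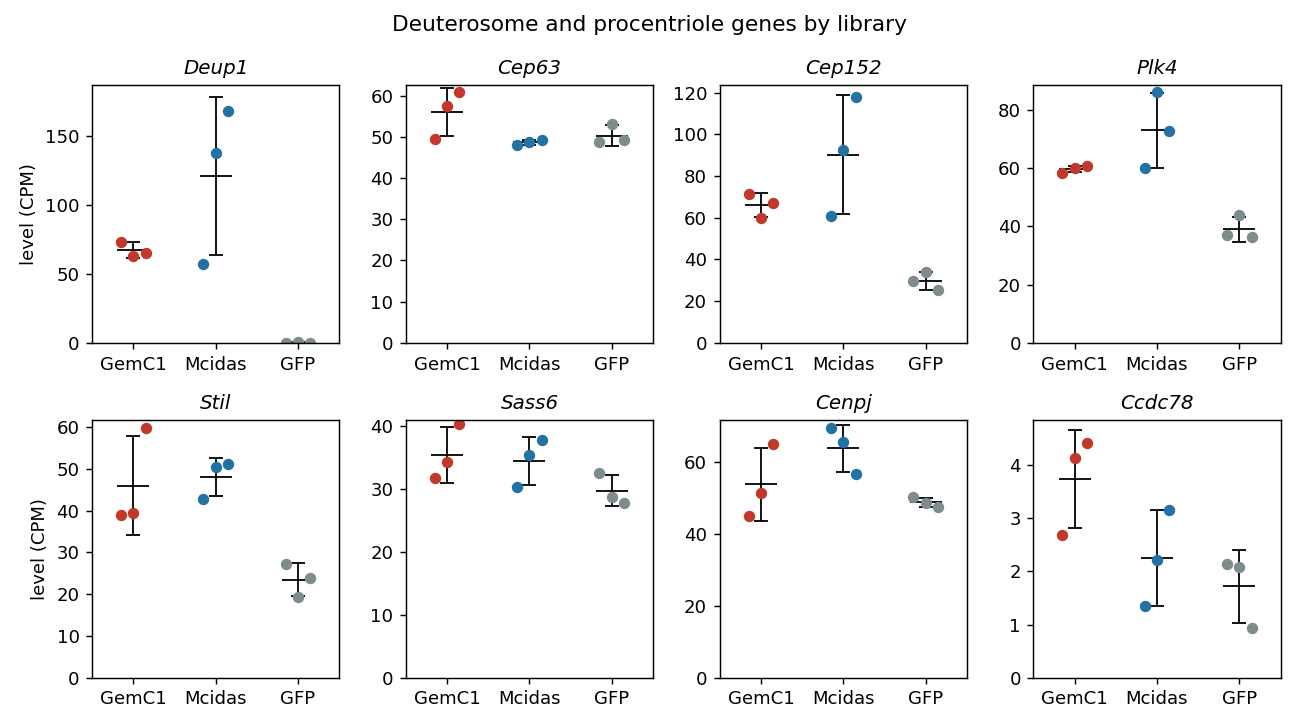
Level of each of the 8 genes (CPM, axes from 0) in the 3 libraries of the GemC1, Mcidas and GFP groups; points are libraries, horizontal bars the mean and error bars the SD. Deup1, Cep152, Plk4 and Stil lie higher in all GemC1 and Mcidas libraries than in any GFP library, and Mcidas replicate 1 is the lowest Mcidas library for Deup1, at 57.3 CPM.

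The sequence upstream of the RefSeq starts was read for short motifs, which were chosen with earlier results of these data known. RefSeq (GRCm38.p6) gives 9 start sites for the 8 genes, and the 250 bases before each were searched on both strands. An E2F core, TTCCCGC, was found before 3 starts, those of Deup1, Cep152 and Plk4. Of 32851 windows of the same length, taken without regard to the kind of gene, 3.82% hold it. Whether E2F factors act at these starts was not tested. The stretches that carry the core are shown 5′ to 3′ on the strand of the gene with the match in capitals.
Deup1: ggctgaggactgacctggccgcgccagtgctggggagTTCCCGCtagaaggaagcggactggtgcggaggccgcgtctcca
Cep152: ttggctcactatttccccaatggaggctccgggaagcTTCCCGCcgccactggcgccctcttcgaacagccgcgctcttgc
Plk4: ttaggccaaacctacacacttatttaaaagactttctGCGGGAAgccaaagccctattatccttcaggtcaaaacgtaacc
The Deup1 stretch is chr9:15627927-15628007 on the minus strand, the Cep152 stretch chr2:125625244-125625324 on the minus strand and the Plk4 stretch chr3:40799794-40799874 on the plus strand, all in GRCm38.p6. The matches begin 124, 174 and 120 bases before the starts of Deup1, Cep152 and Plk4, and in Plk4 the letters read on the opposite strand. Stil, which rose as well, had no E2F core in its window.

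The other motifs were counted in the same windows. A second E2F form, TTGGCGC, was in none of the 9 windows and in 1.97% of all windows. The MYB motif TAACNG was found before the second Deup1 start, Stil and Cenpj (19.8% of all windows), and the CHR motif TTTGAA, a site of cell cycle genes, before Sass6 (16% of all windows). RFX half-sites (GTTNCC) lay before both Deup1 starts, Cenpj and Ccdc78 (39.4% of all windows), with 3 of them before the Deup1 start shown, where 1 shares bases with the E2F core. At Cenpj and at the second Deup1 start, the MYB and RFX matches share bases. Cep63 had no match to any of these motifs. A match of letters in a window is not a bound site.

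Deup1 (ENSMUSG00000039977, chromosome 9, 15559864 to 15627933 of GRCm38, minus strand) encodes the protein that builds the deuterosome. Its level was 73.4, 62.8 and 65.4 CPM in GemC1 replicates 1, 2 and 3, 57.3, 137.4 and 167.6 CPM in Mcidas replicates 1, 2 and 3, and 0.118, 0.319 and 0 CPM in GFP replicates 1, 2 and 3. The GFP values stand for 4, 13 and 0 counts, so the gene was barely counted without a plasmid for either factor. GemC1 libraries were close to each other and Mcidas libraries were not, and neither group overlapped GFP.

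The log2 fold change of Deup1 was 8.71 ± 0.60 (SE, adjusted p = 2.31e-05) in GemC1 and 9.55 ± 0.60 (adjusted p = 8.45e-06) in Mcidas. It ranked 13 from the top among 19572 genes by fold change in each of the 2 comparisons, which share their GFP libraries. Fitted 95% intervals, which take in the spread between libraries, ran from 164.9-fold to 1063-fold in GemC1 and from 296.2-fold to 1907-fold in Mcidas. From summed counts, Deup1 was 426.5-fold higher in GemC1 (95% counting interval 266.2 to 732.7) and 727.5-fold higher in Mcidas (454.1 to 1249). These counting intervals are narrower because they leave out the spread between libraries. GFP replicate 2 sets much of the size: without it the log2 fold change was 10.06 in GemC1 and 10.91 in Mcidas. An antisense gene lies across part of the Deup1 span but shares no exon bases with it.

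Ccdc78 (ENSMUSG00000071202, chromosome 17, 25786580 to 25790513, plus strand), the other deuterosome gene, was low in all groups. It stood at 2.68, 4.13 and 4.41 CPM in GemC1 replicates 1, 2 and 3, at 1.35, 2.22 and 3.16 CPM in Mcidas replicates and at 2.15, 2.09 and 0.930 CPM in GFP replicates. The GemC1 libraries all lay above the GFP libraries, by as little as 2.68 against 2.15 CPM, and the Mcidas libraries overlapped GFP. Its log2 fold change of 1.12 ± 0.39 (SE, adjusted p = 0.133) in GemC1 and 0.37 ± 0.40 (adjusted p = 0.81) in Mcidas did not pass the test. The 95% intervals were wide, from 1.20-fold to 3.91-fold in GemC1 and from 0.713-fold to 2.34-fold in Mcidas, with only 332, 193 and 189 counts summed over the GemC1, Mcidas and GFP libraries. In addition, 10.5% of its exon bases overlap Fam173a on the opposite strand, and the library kits do not mark strand.

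Cep63 (ENSMUSG00000032534, chromosome 9, 102584588 to 102626534, minus strand), the paralogue that serves at the parent centriole, was called in neither comparison. Its level was 49.5, 57.6 and 61.0 CPM in GemC1 replicates, 48.1, 48.9 and 49.2 CPM in Mcidas replicates and 48.7, 53.2 and 49.1 CPM in GFP replicates. GemC1 and Mcidas libraries both overlapped GFP within a narrow band, and every GemC1 library was above every Mcidas library. The log2 fold change was 0.15 ± 0.10 (SE, adjusted p = 0.417) in GemC1 and -0.05 ± 0.10 (adjusted p = 0.912) in Mcidas. The 95% intervals ran from 0.962-fold to 1.29-fold and from 0.836-fold to 1.12-fold.

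Setting the paralogues side by side per length of exon shows how far their balance differed between groups. Deup1 reached 4.30, 3.16 and 3.11 times the Cep63 level per length in GemC1 replicates 1, 2 and 3, 3.45, 8.16 and 9.87 times in Mcidas replicates, and 0.00700, 0.0174 and 0 times in GFP replicates. Expressed as a share of both genes' levels per length, Deup1 made up 75.7% to 81.1% in GemC1, 77.5% to 90.8% in Mcidas and 0% to 1.71% in GFP. Between the factors, the ratio averaged 3.52 ± 0.67 in GemC1 and 7.16 ± 3.32 in Mcidas (SD, n = 3 each). The log2 difference of -0.91 did not separate the groups (exact two-sided permutation test, p = 0.2, where 0.1 is the smallest p that 3 against 3 libraries can give). Taking the longest transcript in place of all exons as the gene length, the ratios were lower, at 2.08 to 2.88 in GemC1 and 2.31 to 6.61 in Mcidas libraries.

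**Figure D2:**
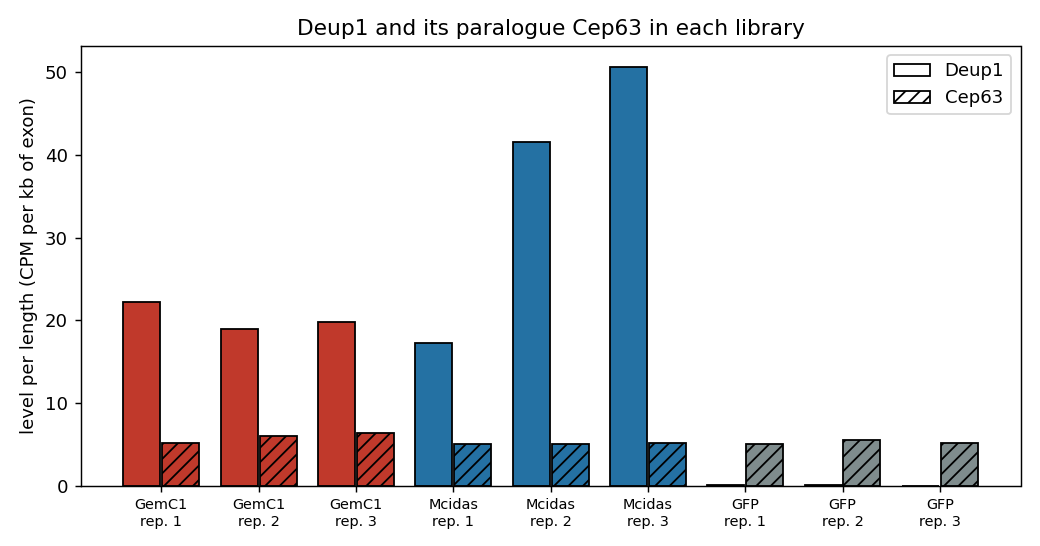
Level per length (CPM per kb of exon, axis from 0) of Deup1 (plain bars) and Cep63 (hatched bars) in each of the 9 libraries, coloured by group. Cep63 stays between 5.01 and 6.35 in every library, while Deup1 is between 17.3 and 50.6 in GemC1 and Mcidas libraries and at most 0.0964 in GFP libraries.

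Cep152 (ENSMUSG00000068394, chromosome 2, 125563088 to 125625113, minus strand) encodes the scaffold that carries PLK4 at parent centrioles and deuterosomes alike. It was counted at 71.2, 59.9 and 67.2 CPM in GemC1 replicates, 60.6, 92.5 and 117.8 CPM in Mcidas replicates and 29.8, 33.8 and 25.3 CPM in GFP replicates. Every GemC1 and Mcidas library exceeded every GFP library, and Mcidas replicate 1 fell among the GemC1 libraries. The rise was 1.16 ± 0.20 on the log2 scale (SE, adjusted p = 0.00431), or 2.23-fold, in GemC1 and 1.61 ± 0.20 (adjusted p = 0.000273), or 3.04-fold, in Mcidas. Per length of exon, Cep152 stood above Cep63 in GemC1 libraries, at 11.5 and 5.84 CPM per kb, and in Mcidas libraries, at 15.7 and 5.08 CPM per kb. The 2 genes overlapped in GFP libraries, at 5.14 and 5.24 CPM per kb. With the longest transcript as length, Cep63 averaged 9.56, 8.31 and 8.59 CPM per kb in GemC1, Mcidas and GFP. The Cep63 mean then still lay below that of Cep152 in GemC1 and Mcidas, but above it in GFP, so the order in GFP rests on the gene model.

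Plk4 (ENSMUSG00000025758, chromosome 3, 40800019 to 40816883, plus strand) encodes the kinase that starts centriole assembly. Its level was 58.5, 60.2 and 60.6 CPM in GemC1 replicates, 60.1, 86.1 and 73.0 CPM in Mcidas replicates and 37.01, 44.0 and 36.2 CPM in GFP replicates. The GemC1 libraries were nearly equal, and no GemC1 or Mcidas library overlapped GFP. Plk4 rose by 0.61 ± 0.13 on the log2 scale (SE, adjusted p = 0.0143), or 1.53-fold, in GemC1 and by 0.90 ± 0.13 (adjusted p = 0.000721), or 1.87-fold, in Mcidas. The call in GemC1 was lost without GFP replicate 1 (adjusted p = 0.0576) or GFP replicate 3 (adjusted p = 0.0858), with log2 fold changes of 0.58 and 0.56.

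Stil (ENSMUSG00000028718, chromosome 4, 115000159 to 115043196, plus strand) encodes the PLK4 substrate that links the kinase to the cartwheel. It stood at 38.9, 39.4 and 59.8 CPM in GemC1 replicates, 42.8, 50.4 and 51.1 CPM in Mcidas replicates and 27.3, 19.3 and 23.9 CPM in GFP replicates. GemC1 replicate 3 was above the other GemC1 libraries, and no GemC1 or Mcidas library overlapped GFP. Stil rose 1.96-fold in GemC1 (log2 0.97 ± 0.18 SE, adjusted p = 0.00622) and 2.05-fold in Mcidas (log2 1.04 ± 0.18 SE, adjusted p = 0.00317).

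Sass6 (ENSMUSG00000027959, chromosome 3, 116594982 to 116631004, plus strand), which encodes the cartwheel protein that STIL recruits, did not pass the test. Its level was 31.7, 34.3 and 40.4 CPM in GemC1 replicates, 30.4, 35.4 and 37.8 CPM in Mcidas replicates and 32.5, 28.8 and 27.9 CPM in GFP replicates, and the groups overlapped. The log2 fold change was 0.26 ± 0.13 (SE, adjusted p = 0.29) in GemC1 and 0.22 ± 0.13 (adjusted p = 0.57) in Mcidas, with 95% intervals that ended at 1.44-fold and 1.40-fold. Of its exon bases, 24.5% overlap the antisense gene Gm42893 and 6.36% overlap Trmt13, and reads of these genes could not be told apart by strand.

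Cenpj (ENSMUSG00000064128, chromosome 14, 56526761 to 56575425, minus strand), which encodes CPAP, was already well expressed without either factor. It was at 45.0, 51.2 and 64.8 CPM in GemC1 replicates, 69.3, 65.6 and 56.6 CPM in Mcidas replicates and 50.2, 48.4 and 47.6 CPM in GFP replicates. GemC1 libraries lay on both sides of the GFP libraries, whereas all Mcidas libraries lay above them. The log2 fold change was 0.14 ± 0.13 (SE, adjusted p = 0.604) in GemC1 and 0.39 ± 0.13 (adjusted p = 0.153) in Mcidas, with 95% intervals of 0.909-fold to 1.34-fold and 1.08-fold to 1.59-fold. With only the Mcidas and GFP libraries in the fit, Cenpj was called in Mcidas (adjusted p = 0.0428), where 3.86% of all genes were called higher.

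**Figure D3:**
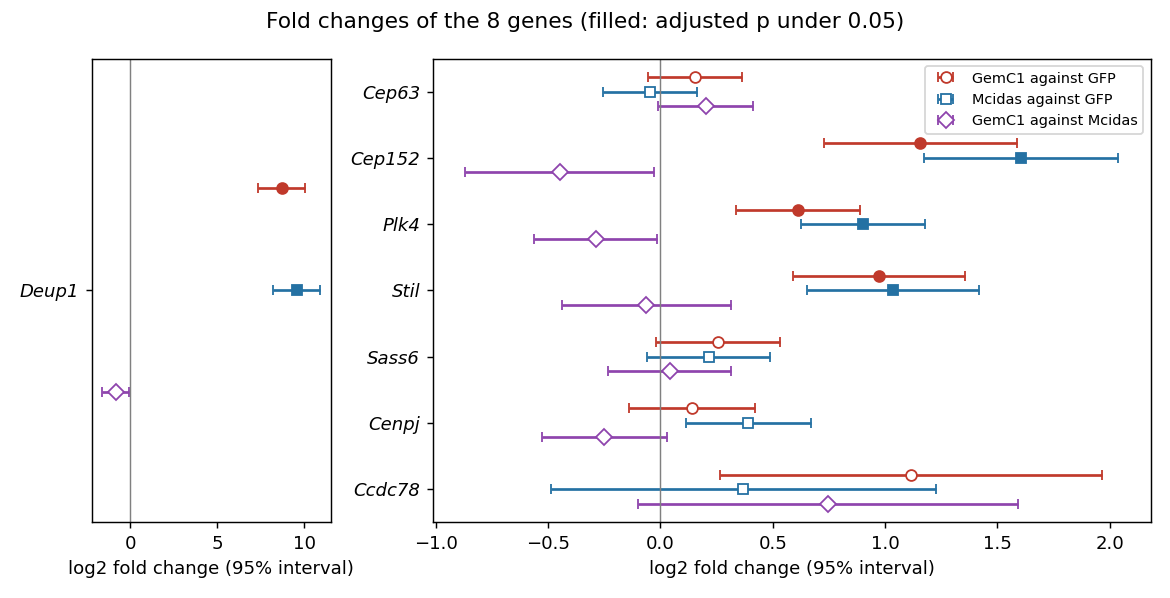
Log2 fold change of each gene with its 95% interval for GemC1 or Mcidas set against GFP and for GemC1 set against Mcidas; filled symbols passed an adjusted p of 0.05, and Deup1 has its own axis. Deup1, Cep152, Plk4 and Stil are filled in both comparisons with GFP, and no symbol is filled in the comparison of GemC1 with Mcidas.

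The replicates of GemC1 and GFP did not overlap for 5 of the 8 genes, all higher in GemC1, where 13.2% of all genes tested did not overlap in that direction. These were the 4 called genes and Ccdc78. In Mcidas against GFP there were also 5, the 4 called genes and Cenpj, beside 10.7% of all genes.

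The order of the levels per length differed between the groups. In GemC1 libraries Deup1 was the highest at 20.3 ± 1.66 CPM per kb of exon (SD, n = 3), clear of Cep152 at 11.5 ± 0.994 and Cenpj at 11.01 ± 2.08, which overlapped each other. Plk4 at 8.72 and Stil at 7.94 overlapped next, and then Cep63 at 5.84 and Sass6 at 5.80. In Mcidas libraries Deup1 also led at 36.5 ± 17.2, but its range overlapped that of Cep152 at 15.7 ± 4.97. Cenpj, Plk4 and Stil followed between 13.1 and 8.30, the range of each overlapping the next. These ranges do not pair genes by library. Within every Mcidas library Deup1 stood above Cep152, Cenpj above Plk4 and Plk4 above Stil, whereas Cep152 and Cenpj changed places between libraries. Ccdc78 was the lowest in both groups, at 1.77 ± 0.438 and 1.06 ± 0.427. In GFP libraries, Cenpj was the highest at 10.0 ± 0.275 CPM per kb. Plk4, Cep63, Cep152, Sass6 and Stil followed between 5.70 and 4.05, the range of each overlapping its neighbour in the order. Within every GFP library, though, Plk4 stood above Cep63 and Sass6 above Stil. Ccdc78, at 0.813 ± 0.324, and Deup1, at 0.0440 ± 0.0488, were the lowest and overlapped neither each other nor Stil. These levels and their order rest on the gene model for other genes too. With the longest transcript as length, Plk4 was at 17.2, 21.0 and 11.2 CPM per kb in GemC1, Mcidas and GFP, against 8.72, 10.7 and 5.70 with all annotated exons. The Plk4 mean then lay above those of Cep152 and Cenpj in every group.

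The direct comparison of GemC1 with Mcidas asked whether the factors differed in their effect on these genes. None of the 8 was called, where 0.0153% of all genes were called higher and 0.0358% lower in GemC1, and DESeq2 called none of the 8 either, with 1.27% of all genes higher and 1.94% lower. At an unadjusted p under 0.05, 3 of the 8 were lower in GemC1 than in Mcidas and none was higher, beside 6.67% of all genes lower and 6.37% higher. These were Deup1 at -0.84 ± 0.34 (SE, adjusted p = 0.329), Cep152 at -0.45 ± 0.19 (adjusted p = 0.351) and Plk4 at -0.29 ± 0.13 (adjusted p = 0.356). Their 95% intervals in GemC1 relative to Mcidas were 0.330-fold to 0.939-fold, 0.548-fold to 0.980-fold and 0.677-fold to 0.989-fold. For Stil (-0.06 ± 0.17) and Sass6 (0.04 ± 0.13) the intervals were 0.737-fold to 1.24-fold and 0.850-fold to 1.24-fold. Cep63 was the only one of the 8 whose GemC1 and Mcidas replicates did not overlap, at 0.20 ± 0.10 (adjusted p = 0.41), beside 9.07% of all genes with replicates higher in GemC1 without overlap.

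Mcidas replicate 1 stood apart from the other Mcidas libraries for several of these genes. For Deup1, Cep152, Plk4, Stil, Sass6 and Ccdc78 it was the lowest Mcidas library, as it was for Cep63 by a narrow margin, and for Cenpj the highest. The delivered gene moved the same way, with Mcidas at 387.5, 507.5 and 596.9 CPM in replicates 1, 2 and 3, and so did Foxj1, at 95.8, 170.2 and 183.3 CPM. Most of 20 marker genes of G2 and mitosis, though not Bub1, were also lowest in Mcidas replicate 1. Their summed level was 1334 CPM there, against 1686 and 1897 CPM in the other Mcidas libraries. Most of 15 S phase genes went the other way, with a sum of 1799 CPM there, against 1593 and 1587 CPM. Counts per gene do not tell plasmid from endogenous Mcidas transcripts, and Mcidas was also higher in GemC1 than in GFP libraries (70.0 against 0.667 CPM). The parts of the Mcidas level and of cycling cells in the differences between Mcidas libraries were not tested. The share of all genes that were lowest in Mcidas replicate 1 was not counted. Without Mcidas replicate 1 the log2 difference of Deup1 between GemC1 and Mcidas was -1.19 (adjusted p = 0.0527) and that of Cep152 -0.67 (adjusted p = 0.125). Leaving out another Mcidas library made both smaller than with all libraries. They were -0.74 (adjusted p = 0.589) and -0.43 (0.594) without replicate 2, and -0.54 (0.511) and -0.21 (0.661) without replicate 3.

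The genes whose log2 CPM followed each of the 8 most closely over the 9 libraries were named by Pearson correlation among 14143 genes, as a description only, since the 9 libraries fall into 3 groups. For Deup1 they were Foxj1 (r = 0.998), Syt10 and Fhad1 (both 0.997). For Cep152 they were Cep128, a centriole protein, Efcab12 (both 0.992) and the cyclin Ccna1 (0.991), and for Plk4 the axonemal dynein Dnah7a (0.990), Smkr-ps (0.977) and Rpgr (0.974), a ciliary protein. Stil was followed by Hrh1 (0.962), Ripor2 and Plekhg5 (both 0.961), Sass6 by F11r (0.965), Rgs9 (0.962) and Cenpp (0.948), and Cenpj by Fam81b, Cercam (both 0.928) and Nucb2 (0.917). Cep63 was followed by Hdac8 (0.953), Ltbr (0.946) and Pigl (0.936), and Ccdc78 by Apobec1 (0.972), Trappc6a (0.968) and Slc27a1 (0.963). Among the 8 themselves, Deup1, Cep152 and Plk4 correlated with each other at 0.939 to 0.956 and with Stil at 0.832 to 0.890, whereas Cep63 correlated with these 4 at 0.057 to 0.237.

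Other genes of centriole assembly were taken from 4 lists. The first held 12 genes of the deuterosome pathway and of the mitotic oscillator that times it. In GemC1, 4 of the 12 rose and none fell, with a median log2 fold change of 0.19. In Mcidas, 3 of the 12 rose and none fell, with a median of 0.06. Beside these, 3.86% and 4.03% of all genes were called higher and 1.32% and 0.327% lower in GemC1 and Mcidas. The medians over all genes were 0.00 and -0.03. Cdc20b, a relative of the APC/C activators that acts in deuterosome release, stood at 19.9, 18.6 and 22.1 CPM in GemC1 replicates, 14.6, 34.4 and 42.2 CPM in Mcidas replicates and 0.294, 0.221 and 0.210 CPM in GFP replicates. Its log2 fold change was 6.37 ± 0.42 (SE, adjusted p = 3.14e-06) in GemC1 and 6.95 ± 0.42 (adjusted p = 1.22e-06) in Mcidas.

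Ccno, an atypical cyclin needed for centriole amplification, averaged 74.7, 93.9 and 2.72 CPM in the GemC1, Mcidas and GFP groups. It rose by 4.79 ± 0.25 on the log2 scale (SE, adjusted p = 9.69e-07) in GemC1 and by 5.12 ± 0.25 (adjusted p = 4.62e-07) in Mcidas. Fbxo43, which encodes the APC/C inhibitor EMI2, had 45, 56 and 54 counts in GemC1 replicates, 21, 49 and 62 counts in Mcidas replicates and 0, 2 and 7 counts in GFP replicates. It rose in GemC1 (4.32 ± 0.79 on the log2 scale, adjusted p = 0.00683) and in Mcidas (4.16 ± 0.79, adjusted p = 0.00707). Cdk1, the main mitotic kinase, was at 95.8, 95.1 and 100.5 CPM in GemC1, 72.6, 94.9 and 111.6 CPM in Mcidas and 75.8, 63.9 and 52.3 CPM in GFP replicates. It rose in GemC1 (0.60 ± 0.15, adjusted p = 0.0408) and was not called in Mcidas (0.54 ± 0.15, adjusted p = 0.0787). The call in GemC1 did not last without GemC1 replicate 1, 2 or 3, Mcidas replicate 2, or GFP replicate 2 or 3, with adjusted p of 0.0872, 0.0914, 0.103, 0.0656, 0.127 and 0.182, or with the replicate block (adjusted p = 0.0877). In Mcidas it was called with DESeq2 (adjusted p = 0.0135), without Mcidas replicate 1 (0.00784) and without GFP replicate 1 (0.044). The other 8 genes of this list, such as Plk1 (0.18 ± 0.19 in GemC1) and Ccnb1 (0.00 ± 0.14), were called in neither comparison.

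The second list held 11 scaffold genes of the parent centriole and its surrounding material, and the third held 8 regulators of PLK4. No gene of either list was called in GemC1 or in Mcidas. Over all genes tested, 3.86% and 4.03% were called higher and 1.32% and 0.327% lower in these comparisons. At such shares, lists this short may well hold no call. Under other settings, 1 scaffold gene was called higher in Mcidas without a low-count filter, with only the groups compared or without GemC1 replicate 2. Of all genes, 2.79%, 3.86% and 3.9% were called higher in Mcidas under these settings. With DESeq2, 1 PLK4 regulator was called higher in Mcidas, beside 5.42% of all genes. Cep192, which shares the task of bringing PLK4 to the centriole with Cep152, had 0.01 ± 0.11 (SE) in GemC1 and 0.03 ± 0.11 in Mcidas. Values of the scaffold list ran from -0.09 to 0.24 in GemC1 and from -0.02 to 0.39 in Mcidas. Those of the PLK4 regulators, which include the ubiquitin ligase genes Btrc and Trim37, ran from -0.15 to 0.34 in GemC1 and from -0.11 to 0.29 in Mcidas.

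The fourth list held 28 genes of centriole elongation and maturation. In GemC1, 4 of the 28 rose and none fell, with a median log2 fold change of 0.28. In Mcidas, 6 of the 28 rose and none fell, with a median of 0.34. Beside these, 3.86% and 4.03% of all genes were called higher and 1.32% and 0.327% lower in GemC1 and Mcidas. The medians over all genes were 0.00 and -0.03. Tube1, the epsilon-tubulin of centriole walls, was at 18.1, 28.4 and 25.9 CPM in GemC1, 30.3, 36.7 and 31.7 CPM in Mcidas and 11.1, 11.6 and 11.6 CPM in GFP replicates. It rose by 1.08 ± 0.16 on the log2 scale (SE, adjusted p = 0.00151) in GemC1 and by 1.53 ± 0.16 (adjusted p = 7.33e-05) in Mcidas. Wdr90, a protein of the inner centriole wall, rose by 1.08 ± 0.16 in GemC1 and 1.44 ± 0.16 in Mcidas, and Cetn2, a centrin, by 0.93 ± 0.14 in GemC1 and 1.12 ± 0.14 in Mcidas. Poc1a rose by 1.11 ± 0.20 in GemC1 and 1.05 ± 0.20 in Mcidas. Kif24, a kinesin that works with the capping protein CP110, was called in Mcidas (1.27 ± 0.22, adjusted p = 0.00319) and not in GemC1 (0.77 ± 0.22, adjusted p = 0.063). Its call in GemC1 turned on the setting, with an adjusted p of 0.0131 in DESeq2, 0.00849 without a low-count filter, 0.0494 with the stricter filter, 0.0196 with only the groups compared and 0.00799 without Mcidas replicate 1. Between GemC1 and Mcidas it was not called (-0.51 ± 0.21, adjusted p = 0.34).

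**Figure D4:**
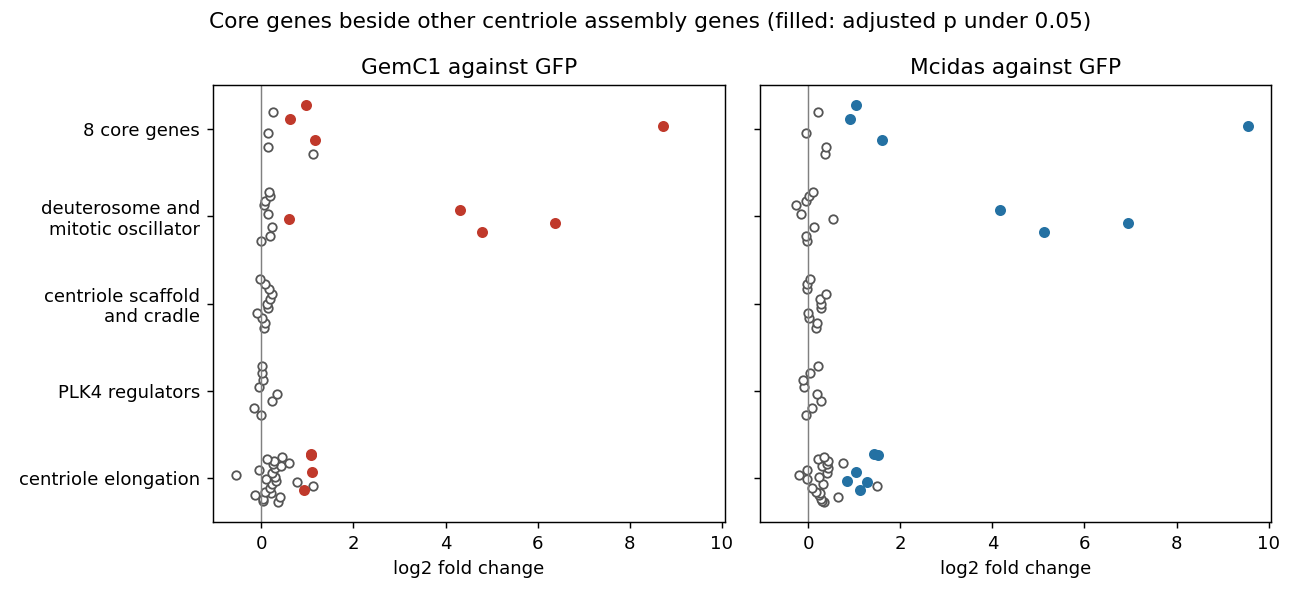
Log2 fold change of every gene of the 8 core genes and of the 4 other lists in GemC1 against GFP (left) and Mcidas against GFP (right); filled points passed an adjusted p of 0.05 and the height of a point within its row has no meaning. Filled points occur among the core genes, the deuterosome and mitotic oscillator genes and the elongation genes, and there are none among the 11 scaffold genes or the 8 PLK4 regulators. Of all genes tested, 3.86% were called higher in GemC1 and 4.03% in Mcidas.

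Plk4, Stil and Sass6 are also expressed in the cell cycle, and markers of cycling cells were read beside them. Over all genes, 3.86% were called higher in GemC1 and 4.03% in Mcidas. Of 20 genes of G2 and mitosis, 1 rose in GemC1 (Cdk1) and none in Mcidas, with median log2 fold changes of 0.00 and -0.04. Of 15 S phase genes, 1 rose in GemC1 and 2 rose in Mcidas, with medians of 0.11 and -0.12. Summed levels of the 20 genes were 1554 to 1853, 1334 to 1897 and 1474 to 1779 CPM in GemC1, Mcidas and GFP libraries and so overlapped. Slbp (0.72 in GemC1 and 0.95 in Mcidas) and Mcm3 (0.74 in Mcidas) were the S phase genes called, named after their values were seen.

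Markers of some other cells moved with the groups. Of 12 microglia markers, 8 rose in GemC1 and 2 in Mcidas, with summed levels of 71.1 to 103.4, 47.4 to 66.4 and 31.6 to 43.6 CPM in GemC1, Mcidas and GFP libraries and none of the 12 at 0 in any group. Of the 11 progenitor markers, 1 (Hes5) fell in Mcidas and none was called in GemC1. Of the 10 neuron markers, 2 fell in GemC1 and none was called in Mcidas, with median log2 fold changes of -0.26 and -0.17. Over all genes, 3.86% and 4.03% were called higher and 1.32% and 0.327% lower in GemC1 and Mcidas, with medians of 0.00 and -0.03. The part of these cell types in the levels of the 8 genes was not tested. Choroid plexus epithelium carries motile cilia of its own, and its 7 markers summed to 3.42 to 9.06, 2.995 to 7.15 and 0.319 to 0.630 CPM in GemC1, Mcidas and GFP libraries. Its defining transcript Ttr had 0 counts in the GemC1 libraries but was counted in the Mcidas and GFP groups. Kl was at 0 in GemC1 and GFP, Folr1 in Mcidas and Otx2 in GFP, and Clic6, the only one of the 7 that passed the low-count filter, rose in both comparisons (log2 5.68 and 5.63). The 7 endothelial and the 6 erythroid markers summed to at most 4.32 and 26.9 CPM in any library. Of each list 4 genes passed the low-count filter, and none of these was called.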

How the data were processed

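RNA-seq was read in 9 libraries of 3 groups. The values are raw counts per Ensembl gene, 1 deposited table for each library, per the file headers. Per the submitters' processing notes, the build was mm10 and the tools included HTSeq 0.5.3, STAR 2.5.2b and DESeq2 1.8.1; their settings, the annotation release and any use of strand are not stated there. Per the labels' protocols, 10 ng of RNA was amplified (SMART-Seq v4) and read for 75 bp, without molecular identifiers, so floors and counting intervals cover counting error only. Of 53379 identifiers, 53274 matched GENCODE M21 (GRCm38), which gave symbols, positions and exon lengths.

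All 9 libraries entered 1 edgeR 4.0.16 fit in R 4.3.3 (filterByExpr with minimum count 10, TMM, robust quasi-likelihood, group as the only term), and p-values were Benjamini-Hochberg adjusted over 19572 genes. SE comes from the F statistic, and fold intervals are 95% from that SE. Log2 CPM for correlations used a prior count of 2. Alternatives were DESeq2 1.42.0, its size factors in edgeR, other filters, a replicate block, fewer groups, counts without mitochondrial and delivered genes, a 2-fold minimum and leaving out each library. Same-numbered libraries did not deviate together.

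The 8 genes, all lists and the promoter motifs were chosen with earlier results of these data known. The text names the 8 genes, Gmnc, Mcidas and Foxj1, up to 4 called genes a list and comparison with the smallest adjusted p, and the 3 genes most correlated with each of the 8. Any other gene of a list was named after its values were seen.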

Additional observations from a re-analysis of the deposited data

How the results depend on the processing

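The 4 called genes were called higher under every alternative in GemC1 against GFP, except that Plk4 was lost without GFP replicate 1 or 3, which left 3, and that a test against a 2-fold minimum called 1, Deup1. In Mcidas against GFP, 4 or 5 were called under each alternative other than the 2-fold minimum, which called 2, Deup1 and Cep152. Apart from the 2-fold minimum, the alternatives called 2.21% to 5.9% of all genes higher in GemC1 and 2.76% to 5.42% in Mcidas. With the 2-fold minimum these shares were 1.54% and 1.9%. Leaving out a library gave between 3 and 4 calls in GemC1 and 4 in Mcidas, beside 2.21% to 4.38% and 2.76% to 4.75% of all genes called higher. None of the 8 was called lower in either comparison, or in either direction between GemC1 and Mcidas, under any of the 17 alternatives. Some log2 values near 0 changed sign when a library was left out, none of them called: Cenpj in GemC1 (-0.019 to 0.257), Cep63 in Mcidas (-0.063 to 0.007), and between GemC1 and Mcidas Stil (-0.297 to 0.04) and Sass6 (-0.063 to 0.111). The log2 difference of the Deup1 to Cep63 ratio lay between -1.365 and -0.607 when a library was left out. The elongation list had 12 higher calls in Mcidas with DESeq2, 11 without a low-count filter, 12 without Mcidas replicate 1 and 1 with the 2-fold minimum, against 6, where 5.42%, 2.79%, 4.75% and 1.9% of all genes were called higher, against 4.03%, and none in GemC1 with the 2-fold minimum, against 4. In GemC1 it had 1 lower call with DESeq2, without a low-count filter, with only the groups compared and without Mcidas replicate 3, where 3.39%, 1.67%, 1.1% and 1.32% of all genes were called lower. The cause of these shifts was not tested. Replicate numbers are shared by the groups, but same-numbered libraries had correlations of deviations from their group means of -0.074 to 0.046, and other library pairs -0.077 to 0.118. With the replicate block, 4 of the 8 genes were called higher in each comparison with GFP, beside 3.18% of all genes in GemC1 and 3.4% in Mcidas. Depth limits Deup1 in GFP libraries, with 0 to 13 counts, and Ccdc78, with 31 to 134 counts in a library.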
